A study of Mus musculus with 78 samples.

Results

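The glycolytic pathway, pyruvate oxidation and the tricarboxylic acid (TCA) cycle were followed through 41 enzyme genes, a set listed by name and found in both count tables of the study, which hold 55367 gene symbols. They comprise 9 genes of glucose phosphorylation and upper glycolysis, 6 of lower glycolysis, 2 lactate dehydrogenases, 4 subunits of the pyruvate dehydrogenase complex, 4 of its kinases, 15 of the TCA cycle and the isocitrate dehydrogenases, and pyruvate carboxylase. The group of 15, called TCA genes below, includes the cytosolic enzymes Aco1, Idh1 and Mdh1, which act outside the mitochondrial cycle. RNA sequencing had been done on 78 bulk libraries from 7 brain regions of 12 mice, 3 for each sex and genotype. Knockout (KO) mice were C57BL6/J animals lacking Acss2 constitutively, made by CRISPR/Cas9 cuts in the introns before exon 3 and after exon 7 and backcrossed for 3 generations. Acss2 encodes an acetyl-CoA synthetase, an enzyme that activates the acetate left when ethanol is oxidised. Wild-type (WT) mice were C57BL6/J without the deletion. Every mouse of both genotypes was a single-housed adult that drank 15% (v/v) ethanol voluntarily in limited sessions in the dark phase, so no group without ethanol is among them. Each region had 3 mice per sex and genotype, apart from female WT amygdala, cortex and prefrontal cortex and male WT prefrontal cortex with 2 each, and male KO prefrontal cortex with 1.

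Glycolysis splits glucose into pyruvate in the cytosol, lactate dehydrogenase exchanges pyruvate with lactate, and pyruvate dehydrogenase passes the carbon as acetyl-CoA into the mitochondrial TCA cycle, where its kinases switch the entry off. Several steps have isozymes encoded by separate genes. In brain, aldolase C is enriched in astrocytes, enolase 2 (neuron-specific enolase) in neurons, and the B subunit of lactate dehydrogenase in cells that oxidise lactate, whereas Aldoa, Eno1 and Ldha are more widely expressed. Pyruvate carboxylase, which replenishes oxaloacetate, is largely an astrocyte enzyme.

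The upstream sequences of the enolase and lactate dehydrogenase pairs are shown because the members of each pair moved in opposite directions between amygdala and dorsal striatum. Each line is the 250 bases before the most upstream RefSeq transcript start in the GRCm38.p6 build, 5′ to 3′ on the gene's strand. Capitals mark every ACGTG or GCGTG on either strand (CACGT or CACGC as read here), letters that occur in the binding motifs of hypoxia-inducible factor, a regulator of glycolytic genes. The windows are chr4:150236458-150236707, plus strand, for Eno1, chr6:124769674-124769923, minus strand, for Eno2, chr7:46845554-46845803, plus strand, for Ldha, and chr6:142507958-142508207, minus strand, for Ldhb.
Eno1: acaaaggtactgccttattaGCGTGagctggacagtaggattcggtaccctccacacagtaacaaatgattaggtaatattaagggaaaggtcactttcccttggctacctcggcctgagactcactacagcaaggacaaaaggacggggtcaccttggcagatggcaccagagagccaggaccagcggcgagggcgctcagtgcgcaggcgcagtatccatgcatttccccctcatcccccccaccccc
Eno2: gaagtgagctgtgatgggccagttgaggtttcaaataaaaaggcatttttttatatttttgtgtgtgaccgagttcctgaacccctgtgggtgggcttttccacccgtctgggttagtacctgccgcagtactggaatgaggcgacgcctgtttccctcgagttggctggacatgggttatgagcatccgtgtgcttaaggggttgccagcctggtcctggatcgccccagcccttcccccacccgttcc
Ldha: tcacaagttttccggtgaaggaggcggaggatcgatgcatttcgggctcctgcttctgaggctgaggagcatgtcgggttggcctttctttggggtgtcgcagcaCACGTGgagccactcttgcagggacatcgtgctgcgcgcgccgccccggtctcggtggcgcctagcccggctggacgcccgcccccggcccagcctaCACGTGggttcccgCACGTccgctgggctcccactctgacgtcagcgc
Ldhb: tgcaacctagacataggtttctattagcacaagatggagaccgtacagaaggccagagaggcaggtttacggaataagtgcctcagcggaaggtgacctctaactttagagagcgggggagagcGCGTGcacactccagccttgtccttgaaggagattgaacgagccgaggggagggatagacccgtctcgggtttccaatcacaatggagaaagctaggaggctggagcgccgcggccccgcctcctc
The Ldha window held ACGTG 5 times, a palindromic CACGTG being counted on both strands, while the Eno1, Eno2 and Ldhb windows held none. GCGTG occurred once each in Eno1 and Ldhb. Of the 40 members with a RefSeq window, 12 held ACGTG, against 16.6% of the 32817 windows of all genes, and 18 held GCGTG, against 28.1%. Such a match describes the letters only.

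Depth differed between regions. The dorsal striatum, ventral striatum, dorsal hippocampus and amygdala libraries (47) held 4454420 to 14487778 counts, and the cortex, ventral hippocampus and prefrontal cortex libraries (31) held 629635 to 1228828, so differences between regions were tested only within these sets, and values set side by side over all 7 regions are descriptions. Acss2 lay at 0.971 to 13.96 counts per 1000000 counts of the library (CPM) in the 40 KO libraries and at 35.9 to 73.8 in the 38 WT libraries, with no overlap; where in the gene the KO counts lie was not analysed here. The prefrontal cortex library labelled female WT from mouse 23 had no Xist count and 73.4 CPM of the Y-linked Ddx3y, against its label. In 7 further libraries the markers of the labelled region summed to less than 1/3 of that region's median. They are dorsal striatum of mice 10 and 23, ventral striatum of mice 10 and 13, dorsal hippocampus of mouse 23, and ventral hippocampus of mice 6 and 10. The library labelled dorsal striatum from mouse 23, for example, had 266 CPM over the 9 striatal projection neuron markers, where the region's median was 6029, and 7495 CPM over 7 cortical and hippocampal excitatory neuron markers, where the 10 other dorsal striatum libraries had 1965 to 3426. For genes named here, values without these libraries are given where leaving them out changed which side of a threshold the gene was on.

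**Figure D1:**
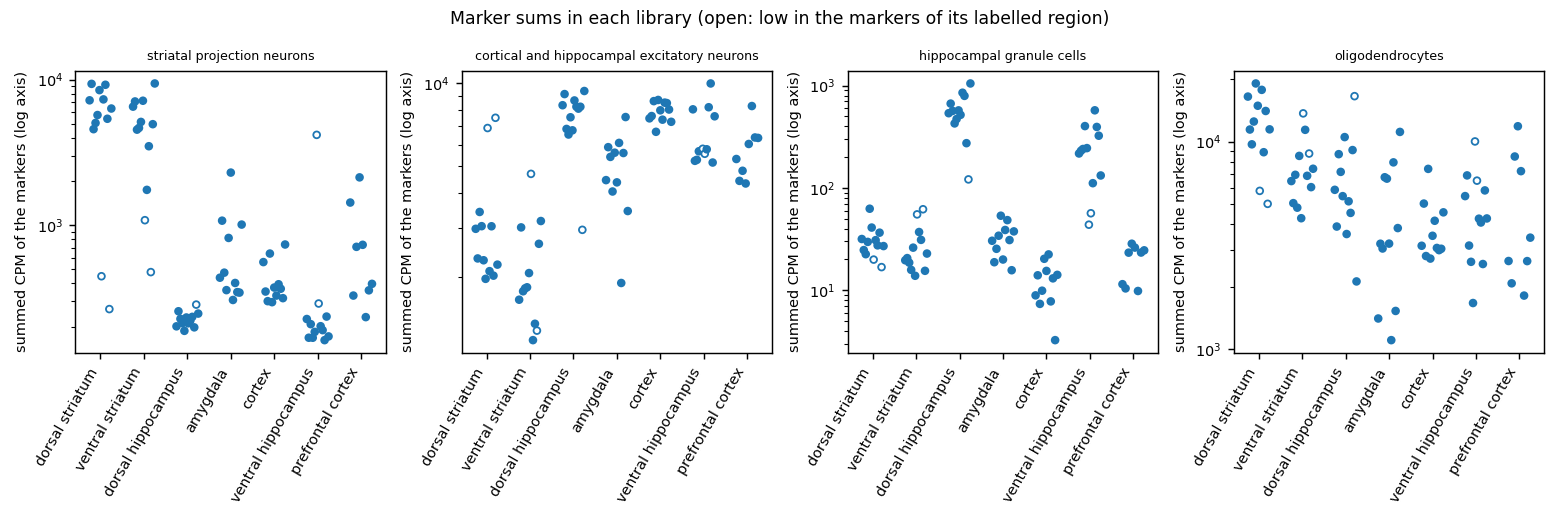
Summed CPM (log axis) of 4 marker lists in each of the 78 libraries, by labelled region; open circles are the 7 libraries low in the markers of their region. The 2 open dorsal striatum circles lie at 266 and 447 CPM of striatal markers, below the 4574 to 9361 CPM of the 10 others.

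Together the members took 1.05 to 1.46% of a library's counts. Levels of different genes were compared as CPM per kilobase of exons, the median over the 78 libraries. The aldolase gene Aldoa was highest at 587.9 CPM per kilobase, followed by Ldhb at 291.8, the cytosolic malate dehydrogenase Mdh1 at 272.1, Aldoc at 259.5 and the pyruvate kinase gene Pkm at 241.6. The triosephosphate isomerase Tpi1 had 199.5, Eno2 192.6, the phosphofructokinase gene Pfkm 149.9 and Gapdh 117.6 CPM per kilobase. TCA genes other than Mdh1 lay below these, from Mdh2 at 73.9 down to the GTP-forming succinyl-CoA ligase subunit Suclg2 at 3.53. The pyruvate dehydrogenase kinase Pdk4 (2.97) and hexokinase 2 (Hk2, 0.906) were the lowest. Hk2 had no count in 1 library and fewer than 3 counts in 4.

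Some of these levels depend on how reads shared with other genes were counted. Of all 50-base stretches of its transcripts, 82.5% of Gapdh, 72.2% of Eno1, 68.0% of Pgk1, 41.5% of Pgam1, 34.4% of Pkm and 27.01% of Ldhb also occur in another annotated gene, so their absolute levels, and their ratios to other genes, are uncertain.

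**Figure D2:**
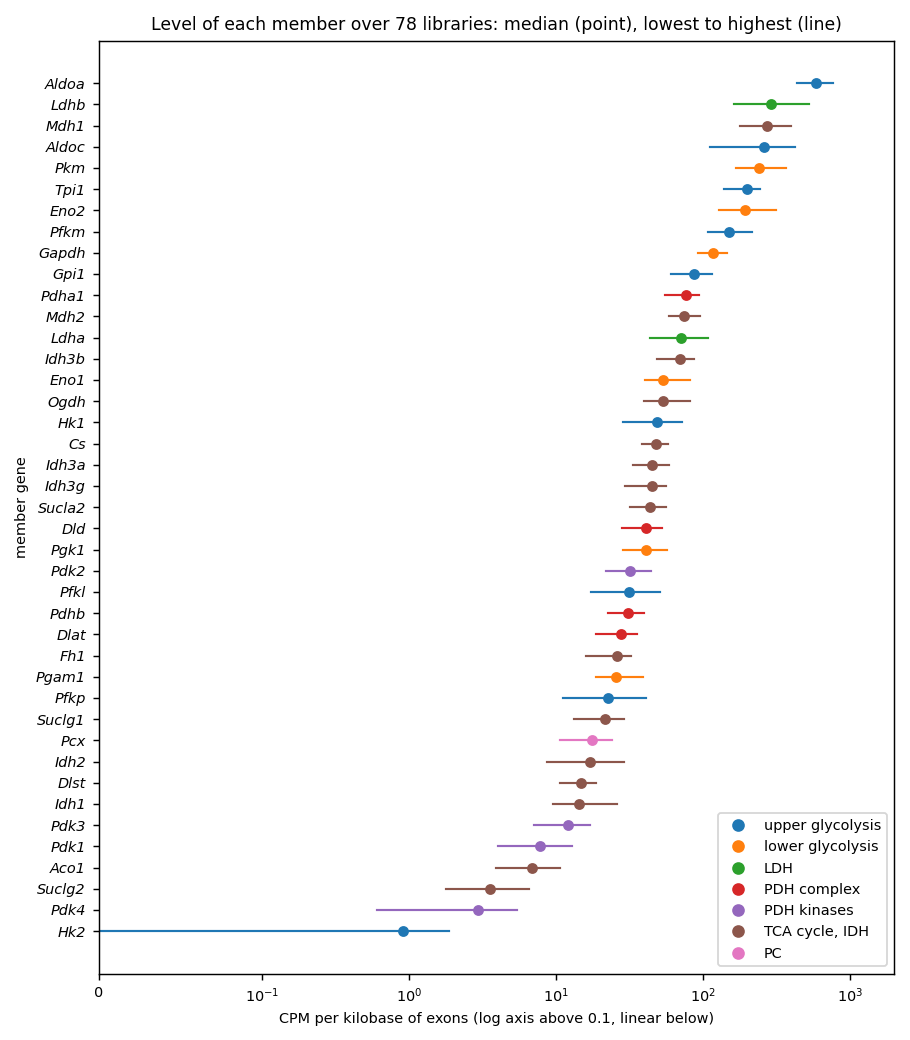
Median (point) and lowest to highest value (line) of each member in CPM per kilobase of exons over 78 libraries, coloured by role; the axis is logarithmic above 0.1 and linear below. Aldoa leads at 587.9 and Hk2 closes at 0.906.

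The balance of isozymes was set out as each gene's share of its family's CPM per kilobase. Hk1 made up a median of 97.6 to 98.8% of Hk1 and Hk2 in each of the 7 regions. The ATP-forming succinyl-CoA ligase subunit Sucla2 made up 91.0 to 93.6% of Sucla2 and Suclg2. Eno2 held the larger share of enolase as counted in every library, with region medians from 74.0% in ventral hippocampus to 83.7% in dorsal striatum. Because of the stretches that Eno1 and Ldhb share with other genes, the enolase and lactate dehydrogenase shares are uncertain. Ldhb was 70.8% of lactate dehydrogenase in amygdala and 75.2% in prefrontal cortex, but 83.9% in cortex, 84.1% in ventral striatum and 85.4% in dorsal striatum. Aldoc reached 40.3% of aldolase in cortex and 36.7% in ventral hippocampus, and 23.6% in prefrontal cortex. Among phosphofructokinases, Pfkm held 68.0 to 77.4% by region, the liver-type Pfkl 10.8% in dorsal striatum but 23.3% in dorsal hippocampus, and the platelet-type Pfkp 8.12% in dorsal hippocampus but 14.9% in prefrontal cortex. Pdk2 was the main pyruvate dehydrogenase kinase, at 53.9 to 63.4%, and Pdk4 a minor one at 3.79 to 7.69%.

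Ratios of isozyme counts were compared between regions of the same mouse with exact sign-flip permutation tests (two-sided), 6 ratios over 9 pairs of regions, 54 tests with Benjamini-Hochberg adjustment. 23 of the 54 had an adjusted p below 0.05, and 20 did when the 7 libraries low in region markers were left out.

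The log2 ratio of Eno2 to Eno1 counts ranged from 1.69 to 2.41 in the 12 dorsal striatum libraries (median 2.17) and from 1.34 to 1.82 in the 12 dorsal hippocampus libraries (median 1.52). The lowest dorsal striatum value belonged to the library of mouse 23, and it alone fell within the hippocampal range. The ratio was lower in dorsal hippocampus by a mean of -0.63 ± 0.21 (SD over 12 mice), in 12 of 12 mice, with an exact permutation p of 0.000488, the smallest this test can give, and an adjusted p of 0.00527. Amygdala lay below dorsal striatum by a similar -0.63 ± 0.25 in 11 of 11 mice (exact permutation p = 0.000977, adjusted p = 0.00527). The difference between ventral and dorsal striatum was -0.011 ± 0.18, with 9 of 12 mice on one side (exact permutation p = 0.844).

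Among the deeper regions the log2 ratio of Ldhb to Ldha had its lowest median in amygdala. It ran there from -0.36 to 1.00 with a median of 0.20, against 0.84 to 2.05 with a median of 1.48 in dorsal striatum. In the shallower set, prefrontal cortex (0.14 to 1.05) and ventral hippocampus (0.26 to 1.06) overlapped the amygdala range. Amygdala was lower by -1.23 ± 0.58 than dorsal striatum in 11 of 11 mice (exact permutation p = 0.000977, adjusted p = 0.00527) and by -1.08 ± 0.39 than ventral striatum, also in 11 of 11. Dorsal hippocampus was above amygdala by 0.88 ± 0.40 in 11 of 11 mice. Its difference from dorsal striatum was -0.43 ± 0.69 in 10 of 12 mice (exact permutation p = 0.0576, adjusted p = 0.120); without the libraries low in region markers it was -0.60 ± 0.48 in 9 of 10 (adjusted p = 0.0281). In prefrontal cortex the ratio lay below that in cortex by -0.64 ± 0.26 in 7 of 7 mice (exact permutation p = 0.0156, the smallest 7 mice allow, adjusted p = 0.0378).

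The Pfkm to Pfkp ratio was higher in dorsal hippocampus than in dorsal striatum, and lower in prefrontal cortex than in cortex. Ventral hippocampus, in the shallower set, ran from 0.70 to 1.48 on the log2 scale and overlapped dorsal hippocampus. The log2 ratio was 0.91 to 1.39 in dorsal hippocampus and 0.41 to 1.02 in dorsal striatum, where all libraries but 1 lay below the hippocampal range. Dorsal hippocampus was higher by 0.54 ± 0.27 in 12 of 12 mice (exact permutation p = 0.000488, adjusted p = 0.00527). In prefrontal cortex the ratio ran from -0.043 to 0.52 and in cortex from 0.70 to 1.32, without overlap. Prefrontal cortex was lower by -0.87 ± 0.30 in 7 of 7 mice (exact permutation p = 0.0156, adjusted p = 0.0378).

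The Aldoc to Aldoa ratio differed less steadily. Prefrontal cortex was below cortex by -0.98 ± 0.59 in 6 of 7 mice (exact permutation p = 0.0312, adjusted p = 0.0675), which misses the threshold, whereas ventral hippocampus was above prefrontal cortex by 0.89 ± 0.64 in 7 of 8 (exact permutation p = 0.0156, adjusted p = 0.0378). That last difference was not among the 20 passing without the libraries low in region markers.

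**Figure D3:**
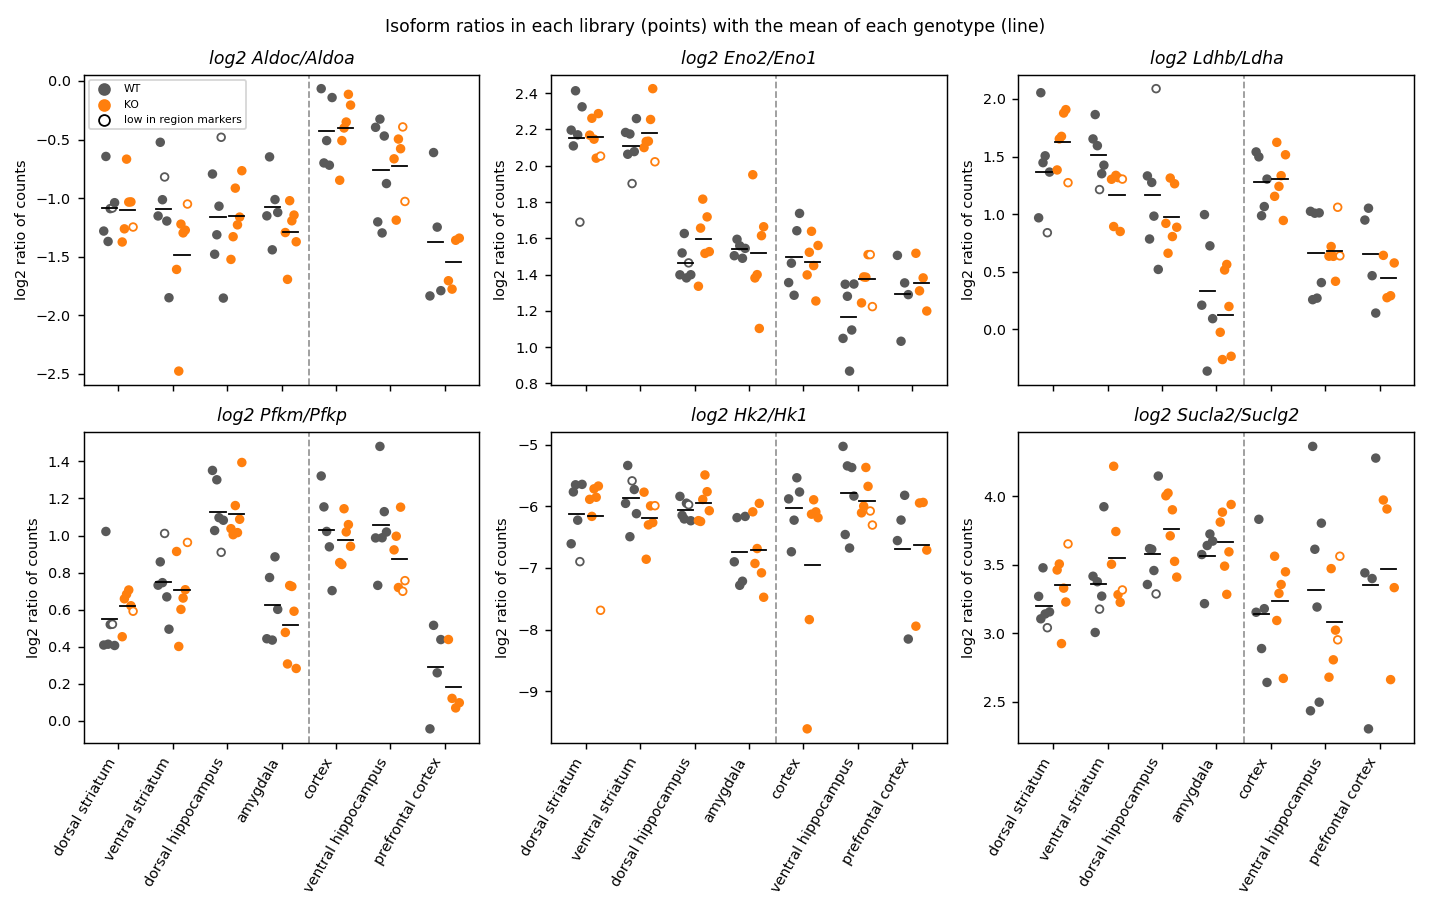
log2 ratio of counts of 6 isozyme pairs in each library (points), grey for WT and orange for KO with the mean of each genotype (line), open where the library is low in region markers; the dashed line separates the 4 deeper from the 3 shallower regions. KO and WT points overlap in each panel, while Ldhb/Ldha has a median of 0.20 in amygdala, below the medians of the 3 other deeper regions.

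Differences between regions were then tested gene by gene across all genes with edgeR's quasi-likelihood test, with the group of sex and genotype as covariate and Benjamini-Hochberg adjustment over 14593 genes in the deeper set and 10619 in the shallower. The contrasts within a set share libraries and are not independent of each other. Bulk tissue mixes cell types, so fewer cells of a type and less RNA per cell cannot be told apart in any of these differences. The ratio of the highest to the lowest region median had a median of 1.233 over the members in the deeper regions and 1.263 in the shallower. Idh2, a mitochondrial NADP-dependent isocitrate dehydrogenase, was called in 0 of 9 contrasts and Dld, the shared lipoamide dehydrogenase subunit, in 7. Without the libraries low in region markers Idh2 passed in ventral hippocampus against cortex. Idh2 also varied more within groups of region, sex and genotype, with a log2 SD of 0.32 in the deeper and 0.38 in the shallower set. Dld had 0.086 and 0.12.

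Between dorsal hippocampus and dorsal striatum 25 of 41 members passed an adjusted p of 0.05, 9 higher and 16 lower in hippocampus, where 54.7% of all genes passed. Pfkp had 168 to 242 CPM in dorsal hippocampus (median 195) and 284 to 476 in dorsal striatum (median 355). These ranges did not overlap, and the log2 fold change was -0.87 ± 0.08 (SE, adjusted p = 1.31e-11). The liver-type Pfkl went the other way, from 116 to 223 CPM in dorsal striatum (median 144) to 146 to 338 in dorsal hippocampus (median 293). Its ranges overlapped, with a log2 fold change of 0.86 ± 0.12 (adjusted p = 3.09e-08) that was 1.05 without the libraries low in region markers. Pfkm, the muscle-type subunit, was lower in hippocampus by a smaller log2 fold change of -0.33 (adjusted p = 1.33e-05).

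Ldhb fell from 517 to 828.8 CPM in dorsal striatum (median 646) to 254 to 611 in dorsal hippocampus (median 400), a log2 fold change of -0.76 ± 0.10 (adjusted p = 1.54e-08). The highest hippocampal value belonged to mouse 23. Pdk4, the kinase induced by fasting and fatty acids, was lower by -0.64 ± 0.15 (adjusted p = 0.000261) and Suclg2 by -0.54 ± 0.11 (adjusted p = 3.45e-05), while Hk2 was higher by 0.51 ± 0.16 (adjusted p = 0.00567). Among lower glycolysis Eno2 and Pkm were lower, by -0.45 and -0.32, and 5 of 15 TCA genes were lower (Aco1, Ogdh, Sucla2, Suclg2, Mdh1) against 3 higher (Idh3g, Dlst, Mdh2).

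Amygdala against dorsal striatum gave 23 of 41 members, 11 higher and 12 lower, where 55.6% of all genes passed. Ldhb was the most changed, with 271 to 493.3 CPM in amygdala (median 355), all below the lowest dorsal striatum library. The log2 fold change was -0.94 ± 0.10 (adjusted p = 2.86e-10), and Ldha moved oppositely by 0.33 (adjusted p = 0.00597). The enolases did likewise: Eno1 was higher by 0.44 (adjusted p = 1.02e-05) and Eno2 lower by -0.19 (adjusted p = 0.0243). Kinases of pyruvate dehydrogenase divided, Pdk1 rising by 0.55 ± 0.13 and Pdk2 by 0.45 ± 0.06, Pdk4 falling by 0.73 and Pdk3 by 0.24 on the log2 scale. Pdk4 counted 5.17 to 14.7 CPM in amygdala (median 6.79) and 8.60 to 18.96 in dorsal striatum (median 13.4), with overlap. Hk1 and Pfkl were higher, by 0.48 ± 0.10 and 0.69 ± 0.12, and pyruvate carboxylase (Pcx) was lower by -0.21 (adjusted p = 0.0413), a call lost without the libraries low in region markers.

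Between the 2 striatal regions Pdk4 was the 1 member of 41 that passed, where 13.7% of all genes did, with 5.74 to 12.7 CPM in ventral striatum (median 9.35) against 8.60 to 18.96 in dorsal striatum. Its log2 fold change was -0.49 ± 0.15 (adjusted p = 0.0202). It was -0.65 (adjusted p = 0.00174) without the libraries low in region markers, when Dlat, Hk1 and Ldhb also passed, and the call was lost without mouse 1, 5 or 6, at -0.45, -0.46 and -0.46.

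Against ventral striatum, dorsal hippocampus gave 23 of 41 members (8 higher, 15 lower, background 53.9%) and amygdala gave 18 (10 higher, 8 lower, background 46.9%). Eno2 had 905 to 1482 CPM in ventral striatum and 705 to 865 in dorsal hippocampus, without overlap, at a log2 fold change of -0.54 ± 0.07 (adjusted p = 1.64e-08). The oxoglutarate dehydrogenase gene Ogdh was lower in hippocampus by -0.40 ± 0.06, Pfkp by -0.76 ± 0.08, Ldhb by -0.49 ± 0.10 and Suclg2 by -0.40 ± 0.11, and Pfkl was higher by 0.81 ± 0.12. In amygdala Pdk1 was higher by 0.69 ± 0.13, Pfkl by 0.64 ± 0.12, Pdk2 by 0.47 ± 0.06, Ldha by 0.43 ± 0.10 and Hk1 by 0.42 ± 0.10, and Ldhb lower by -0.68 ± 0.10. Pdk1 lay between 52.5 and 99.5 CPM in amygdala (median 73.0) and between 31.9 and 77.7 in ventral striatum (median 43.6).

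Dorsal hippocampus against amygdala gave 15 of 41 members, 4 higher and 11 lower, where 39.1% of all genes passed. Ldha fell from 197 to 360 CPM in amygdala (median 303) to 143 to 226 in dorsal hippocampus (median 177), a log2 fold change of -0.68 ± 0.10 (adjusted p = 7.32e-07). Pfkp was lower by -0.68 ± 0.09 without overlap of the regions, the cytosolic isocitrate dehydrogenase Idh1 by -0.57 ± 0.10, Pdk1 by -0.53 ± 0.13 and Eno1 by -0.27 ± 0.08, whereas Hk2 was higher by 0.51 ± 0.16 (adjusted p = 0.0102).

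Marker lists of other cell types moved with these contrasts. Oligodendrocyte markers were lower in 10 of 10 genes in amygdala against dorsal striatum, summing to 1103 to 11138 CPM against 5011 to 19074, and in 9 of 10 genes in dorsal hippocampus against dorsal striatum. Neuron markers were higher in 6 of 8 and in 3 of 8 of their genes. Astrocyte markers divided in amygdala against dorsal striatum, 1 higher and 2 lower of 10, and 3 of 10 were higher in dorsal hippocampus. Their part in the members' differences was not tested.

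**Figure D4:**
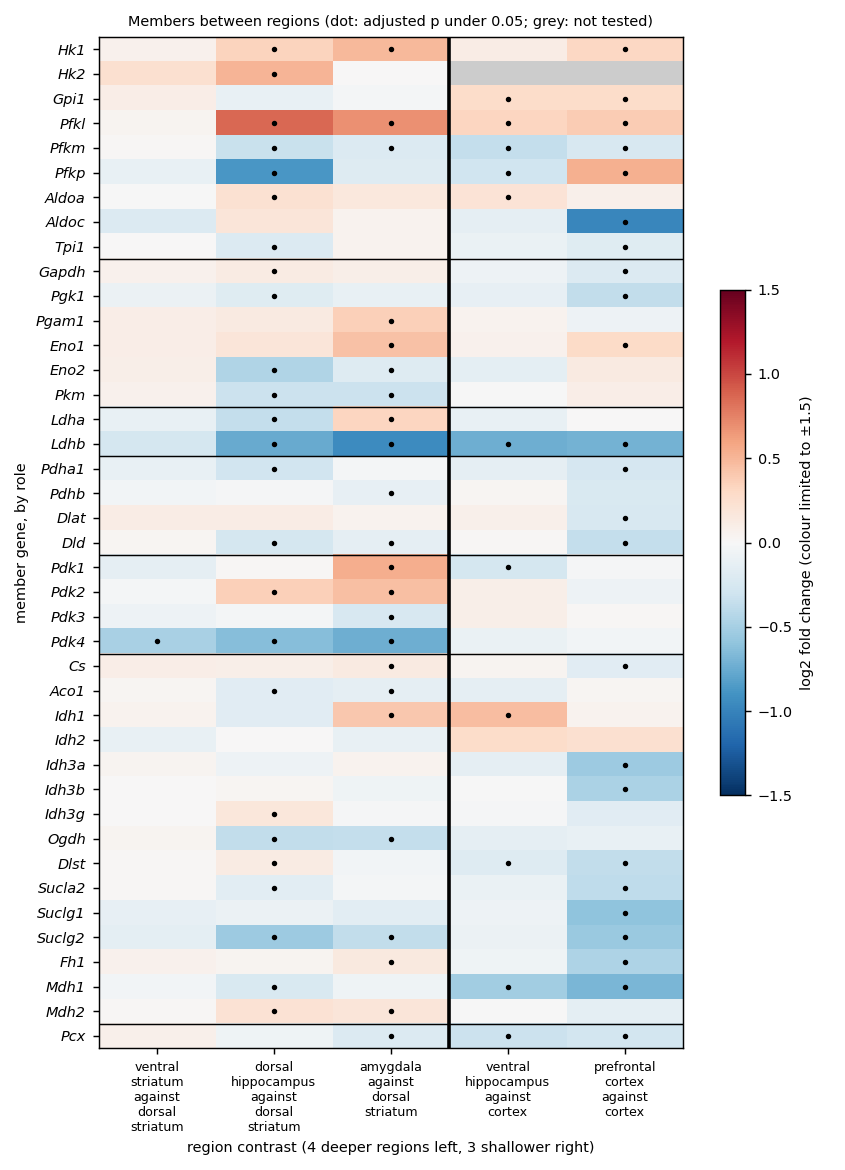
log2 fold change (colour, limited to ±1.5) of each member in 5 region contrasts, the first 3 against dorsal striatum and the last 2 against cortex; dots mark an adjusted p below 0.05 and grey a gene not tested. Ldhb is lower in 4 of the 5, by -0.71 to -0.94.

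Prefrontal cortex against cortex gave a larger share of members than of all genes, a background not matched to the members for expression level. 24 of 40 tested members passed, 5 higher and 19 lower, where 39.4% of all genes passed, 19.5% higher and 19.9% lower. The members' median log2 fold change was -0.17 and that of all genes 0.015. The 15 TCA genes gave 9 of the 19 lower genes and none higher. These 9 were citrate synthase (Cs), Idh3a, Idh3b, Dlst, Sucla2, Suclg1, Suclg2, fumarase (Fh1) and Mdh1, the last of them cytosolic. Pyruvate dehydrogenase gave 3 of its 4 subunits, Pdha1, Dlat and Dld. With mouse as a block 20 members passed, and Cs, Suclg2, Dlat and Tpi1 did not. That leaves 7 TCA genes, Mdh1 included, and 2 pyruvate dehydrogenase subunits. The share of all genes passing in the block fit is not given here, so these counts have no background beside them. Upper glycolysis was divided, with Hk1, Gpi1, Pfkl and Pfkp higher and Pfkm, Aldoc and Tpi1 lower.

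Aldoc counted 931 to 1380 CPM in the 11 cortex libraries (median 1178) and 446 to 966 in the 8 prefrontal cortex libraries (median 608). The WT library of mouse 11 alone reached into the cortex range, and the log2 fold change was -0.98 ± 0.11 (adjusted p = 3.79e-08). Mdh1 had 814 to 1019 CPM in cortex (median 936) and 550 to 710 in prefrontal cortex (median 611), without overlap. Its log2 fold change was -0.69 ± 0.07 (adjusted p = 4.28e-09). Ldhb had 495 to 698 CPM in cortex and 305 to 454 in prefrontal cortex, again apart, at -0.71 ± 0.10 (adjusted p = 4.36e-07).

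Idh3a, the catalytic subunit of the NAD-dependent isocitrate dehydrogenase, had 222 to 296 CPM in cortex (median 257) and 168 to 220 in prefrontal cortex (median 183), just apart, at -0.54 ± 0.07 (adjusted p = 6.17e-07). Suclg1, the shared alpha subunit of succinyl-CoA ligase, was lower by -0.61 ± 0.09 (adjusted p = 4.09e-06), with 85.2 to 128 CPM in cortex and 61.3 to 95.8 in prefrontal cortex, which overlap. Suclg2, its GTP-specific partner, was lower by -0.55 ± 0.21 (adjusted p = 0.0364). Its adjusted p was 0.0674 with mouse as a block, and the call was also lost without the prefrontal cortex library of mouse 23 (adjusted p = 0.0687). Pfkp was higher by 0.54 ± 0.09 (adjusted p = 2.46e-05), from 231 to 320 CPM in cortex to 351 to 549 in prefrontal cortex, without overlap. Leaving out the prefrontal cortex library of mouse 23 kept 22 of the 24 calls, losing Suclg2 and Pcx, and none changed sign.

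Ventral hippocampus against prefrontal cortex gave 16 of 40 members, 12 higher and 4 lower, where 30.9% of all genes passed, 15.7% higher and 15.2% lower. 7 of 15 TCA genes were higher and none lower, among them Suclg1 by 0.53 ± 0.09, Idh3b by 0.47 ± 0.07, Idh3a by 0.41 ± 0.07 and Fh1 by 0.40 ± 0.09. With mouse as a block 13 members passed, and Sucla2, Pdhb and Pdk1 did not, which leaves 6 TCA genes. The share of all genes passing in that fit is not given here. Pdhb and Pdk1 were also lost without the libraries low in region markers, and without the prefrontal cortex library of mouse 23. In each of these settings 14 members passed. Aldoc was higher by 0.84 ± 0.11 (adjusted p = 8.01e-07), at 890 to 1307 CPM in ventral hippocampus. Pfkp had 151 to 295 CPM there, below all prefrontal cortex libraries, and was lower by -0.84 ± 0.09 (adjusted p = 4.41e-08). Both this contrast and the preceding one use the 8 prefrontal cortex libraries.

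Gapdh, often used as a reference gene, was lower in prefrontal cortex than in cortex by -0.21 ± 0.07 (adjusted p = 0.0169). In dorsal hippocampus against dorsal striatum it stood at 0.12 ± 0.05 (adjusted p = 0.0463), a call lost with mouse as a block (adjusted p = 0.0623) and without the libraries low in region markers (adjusted p = 0.0712). It passed in none of the 7 other region contrasts.

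Ventral hippocampus against cortex gave 11 of 40 members, 4 higher and 7 lower, where 29.3% of all genes passed. Ldhb was lower by -0.73 ± 0.08 (adjusted p = 1.3e-08) and Mdh1 by -0.52 ± 0.06, both also lower in prefrontal cortex than in the same cortex libraries. Pfkm was lower by -0.36 ± 0.06 and Pcx by -0.32 ± 0.09, and Idh1 was higher by 0.46 ± 0.11 and Pfkl by 0.32 ± 0.10.

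Neuron markers were lower in 3 of 8 genes in prefrontal cortex against cortex and higher in none, summing to 6022 to 7141 CPM against 8263 to 9926, without overlap. Snap25 weighed most in these sums, with a median of 4214 CPM in cortex and 1927 in prefrontal cortex. Medians of Rbfox3, Stmn2, Map2 and Nefl were also lower in prefrontal cortex. Those of Syt1 (1493 in cortex, 1645 in prefrontal cortex), Syn1 (535 and 646) and Tubb3 (291 and 333) were higher there. Astrocyte markers were lower in 4 of 10 and higher in 1, at 2932 to 4716 CPM against 3391 to 4459, and oligodendrocyte precursor markers were higher in 3 of 3. Within prefrontal cortex the 9 striatal projection neuron markers summed to 712 to 2134 CPM in KO libraries and 234 to 396 in WT libraries. Only 1 male KO library is among them, and the WT libraries include that of mouse 23 with Ddx3y counts against its label. The part of any of these markers in the members' values was not tested.

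The effect of Acss2 loss was tested first per mouse, summing the counts of the 4 regions that every mouse had, dorsal and ventral striatum and dorsal and ventral hippocampus, for 6 KO and 6 WT mice. No member of the 41 passed an adjusted p of 0.05 in edgeR's quasi-likelihood test, where 0.00617% of all genes did, namely Acss2 itself, at a log2 fold change of -2.89 ± 0.08. None reached an unadjusted p below 0.05 either, which 3.55% of all genes did, and DESeq2 also called 0 members. The members' log2 fold changes ran from -0.13 (Suclg2) to 0.075 (Pdk1), with a median of -0.014. Without the 4 mice that have a library low in region markers 0 members passed as well.

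Aldoc had 601 to 869 CPM in KO mice (median 782) and 660 to 950 in WT mice (median 831), a log2 fold change of -0.099 ± 0.095. Ldhb had 472 to 608 CPM in KO (median 531) and 465 to 571 in WT (median 535), at 0.010 ± 0.065. Eno2 had 921 to 1077 CPM in KO and 915 to 1062 in WT, at 0.035 ± 0.058. In all 3 the genotypes overlapped nearly throughout. Pkm, at 0.032 ± 0.054, Gapdh, at -0.050 ± 0.052, Pfkm, at 0.025 ± 0.057, and Pcx, at 0.013 ± 0.063, differed by no more than their error. Pdk4 and Suclg2, both at low counts, had the wider errors, at -0.11 ± 0.13 and -0.13 ± 0.11. The isozyme ratios did not differ detectably per mouse, from -0.096 for Hk2/Hk1 to 0.10 for Eno2/Eno1 on the log2 scale (exact permutation within sex, 400 labellings, adjusted p 0.612 to 0.635).

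**Figure D5:**
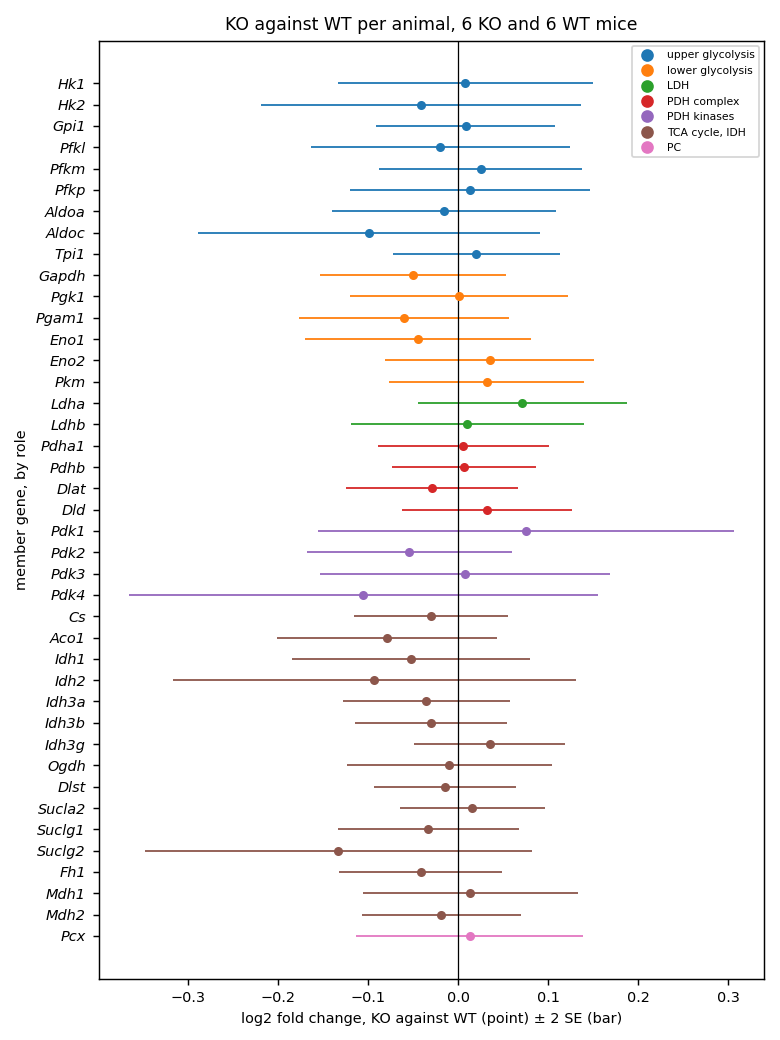
log2 fold change of each member, KO against WT, per mouse with the counts of 4 regions summed (point) and 2 standard errors to each side (bar), for 6 KO and 6 WT mice. The points run from -0.13 (Suclg2) to 0.075 (Pdk1), and each bar crosses 0.

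By region with both sexes, 0 of 284 tests of members passed, where 0.0187% of all tests did, and 4 (1.41%) had an unadjusted p below 0.05, where 4.73% of all tests did. DESeq2 also called 0. These were the cytosolic aconitase Aco1 and Pdk1 in cortex, at -0.48 ± 0.19 and -0.28 ± 0.13, the pyruvate dehydrogenase subunit Pdhb in dorsal striatum, at 0.15 ± 0.07, and Cs in ventral striatum, at -0.16 ± 0.07, with adjusted p of 0.647 to 1. An unadjusted p below 0.05 was met there by 6.7%, 1.5% and 7.31% of all genes. Without the libraries low in region markers Pdhb stood at 0.11 (unadjusted p = 0.107) and Cs at -0.13 (unadjusted p = 0.125). Of the 42 ratio tests by region the smallest exact permutation p were 0.025 for Eno2/Eno1 in ventral hippocampus, higher in KO by 0.21, and 0.045 for Ldhb/Ldha in ventral striatum, lower by -0.35, with adjusted p of 0.817 for both.

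Within each sex and region, 13 comparisons, 0 of 527 tests of members passed, where 0.0368% of all tests did, and 12 (2.28%) had an unadjusted p below 0.05, where 4.53% did. DESeq2 also called 0. Acss2 itself passed in 8 of these 13 comparisons, with log2 fold changes of -3.94 to -2.56 in all 13. In female cortex Aco1 counted 20.7, 29.7 and 23.1 CPM in KO and 47.8 and 39.9 in WT. The groups did not overlap, and the log2 fold change was -0.85 ± 0.27 (unadjusted p = 0.00497, adjusted p = 0.31), where 10.6% of all genes had an unadjusted p below 0.05. In the same comparison Suclg1 counted 121, 128 and 121 CPM in KO and 85.2 and 91.6 in WT, at 0.48 ± 0.17 (adjusted p = 0.337), and Fh1 stood at 0.38 ± 0.18. The difference of the Suclg1 effect between the sexes in cortex, males minus females, was -0.65 ± 0.22 (unadjusted p = 0.007, adjusted p = 0.893).

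Male ventral striatum held 4 of the 12. Aldoc counted 593, 362 and 690 CPM in KO and 760, 856 and 963 in WT, Idh1 34.7, 30.9 and 39.6 against 42.8, 46.3 and 69.3, and Suclg2 15.3, 9.99 and 16.3 against 18.7, 21.4 and 22.1. KO lay below WT without overlap in each, with log2 fold changes of -0.63 ± 0.24, -0.56 ± 0.21 and -0.55 ± 0.20 and adjusted p of 0.493 to 0.496. Unadjusted p below 0.05 was met by 9.84% of all genes there, and by 5.18% in the lower direction. The library of KO mouse 10 and that of WT mouse 13 were low in striatal markers. Without both, leaving 2 mice each, the log2 fold changes were -0.71, -0.39 and -0.61 with adjusted p of 0.285 to 0.405. Without WT mouse 13 alone Idh1 stood at -0.31. Over the members 30 of 41 were lower, with a median of -0.11 where that of all genes was 0.02. The member medians of the 13 comparisons ran from -0.112 to 0.059. Neither the share of all genes that were lower nor the count of members without the libraries low in striatal markers is given here.

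Other members reached an unadjusted p below 0.05 singly. They were the isocitrate dehydrogenase subunit Idh3g in female prefrontal cortex (-0.40 ± 0.16), Pfkl in female ventral hippocampus (-0.44 ± 0.15), Dlat in male cortex (-0.33 ± 0.16) and Eno2 in male ventral hippocampus (0.43 ± 0.19), with adjusted p of 0.425 to 1. Of all genes, 9.08%, 3.93%, 2.95% and 8.08% had such a p in these comparisons. Dlat stood at -0.21 without KO mouse 2. Eno2 in the last had 687, 903 and 1024 CPM in KO and 602, 615 and 678 in WT. The KO mouse with the highest value, mouse 10, was low in granule cell markers, and without it the log2 fold change was 0.30 (unadjusted p = 0.168).

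For the difference of the KO effect between the sexes, 0 of 244 tests of members passed, where 0% of all tests did, and 4 (1.64%) had an unadjusted p below 0.05, where 4.25% did, and DESeq2 called 0 too. Besides Suclg1 these were Ldha in cortex, at -0.44 ± 0.20, Suclg2 in amygdala, at -0.60 ± 0.24, and Idh1 in dorsal striatum, at -0.42 ± 0.18, each the male effect minus the female. Of all genes, 5.41%, 4.42% and 4.76% had such a p in these regions. Without the libraries low in region markers Idh1 stood at -0.44 (unadjusted p = 0.0553).

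In 2 comparisons 1 mouse decided the call, and both were singled out after their values were seen. Ldhb in female dorsal hippocampus counted 420, 396 and 404 CPM in KO and 262, 611 and 254 in the WT mice 11, 23 and 24. With all 6 libraries the log2 fold change was 0.11 ± 0.32 (adjusted p = 1). Without mouse 23, whose library was low in granule cell markers (121 CPM, region median 551) and high in oligodendrocyte markers (16566 CPM), it was 0.60 ± 0.10 (adjusted p = 0.0388), where 1.17% of all genes passed. Leaving out the libraries low in region markers removes the same library here and so is the same fit. Leaving out any other mouse and the remaining settings gave -0.092 to 0.14. In males the KO mice had 362, 282 and 405 CPM and the WT mice 462, 378 and 443, at -0.25 (adjusted p = 0.999).

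Aldoc in female prefrontal cortex counted 546, 638 and 654 CPM in KO, 966 in WT mouse 11 and 543 in WT mouse 23. The log2 fold change was -0.33 ± 0.21 (adjusted p = 0.739). Without the library of mouse 23, which carried the Ddx3y counts, it was -0.69 ± 0.17 (adjusted p = 0.0259), where 2.71% of all genes passed, but this sets 3 KO libraries against 1 WT library that is assumed to vary like the others.

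What the design could detect differed between these comparisons. In counts simulated for 16215 genes, the per-mouse test recovered 47.8% of 67 genes changed by a log2 fold of 0.5. It recovered 83.3% of 66 genes changed by 1. The male ventral striatum test, with 13623 genes simulated, recovered 0% of 67 at 0.5 and 24.2% of 66 at 1. The female cortex test, with 10044 genes simulated, recovered 6.06% of 66 at 0.5 and 62.7% of 67 at 1. Most changes of a log2 fold of 0.5 within 1 sex and region were therefore missed in both of these simulations. The changed genes were drawn at random from all genes simulated, so these are not recovery rates for the members.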

How the data were processed

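Poly(A) RNA from 78 libraries of 12 mice was sequenced. Both deposited tables give unnormalised counts for each gene, made by the authors with STAR 2.5.2a, SAMtools 1.1 and HTSeq 0.6.1 on GRCm38/mm10, per the submitters' processing notes; whether strand was used is not given in the sources used here. From the deposited counts, edgeR 4.0.16 in R 4.3.3 (TMM scaling, genes kept by filterByExpr with a minimum count of 10 and total of 15, quasi-likelihood test, Benjamini-Hochberg adjustment over all genes tested, threshold 0.05) gave log2 fold changes with standard errors. CPM is a count per 1000000 of the column total; exon lengths came from a GRCm38 annotation. DESeq2 1.42.0 and limma 3.58.1 (voom, mouse as random effect, correlation 0.0185), other scaling, filtering, length and GC offsets, mouse as a block and leaving out each mouse were alternatives; leaving out libraries low in region markers, or the prefrontal cortex library of mouse 23, was added after seeing the data. Fits were tested on simulated data. Isozyme ratios are log2 ratios of counts plus 0.5, averaged over 4 regions for each mouse in the genotype test.

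The members, the marker lists and a wider pathway list of 62 genes were chosen with earlier results of these data known. For each comparison the text names every member past the threshold where there are at most 8, otherwise the 6 with the largest log2 fold changes, or, where none passed, the 3 with the smallest unadjusted p below 0.05, and the genes of the 6 isozyme ratios, Pkm, Gapdh, Pdk4 and Pcx could be named whatever their values, though not in every comparison; other genes named were chosen after their values were seen. Regions of a mouse come from the same animal, per the labels, which pairs them; the deviations of its libraries from their group means had a mean correlation of 0.0448 (69 pairs), against -0.0202 for different mice (138 pairs). Genotypes were compared between mice. Totals per library ran from 629635 to 14487778 counts, so 3 counts, the limit for a value of 0, equal 0.207 to 4.76 CPM; this covers counting error only. Tests of male prefrontal cortex alone were left out, since it has 1 KO library.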

Additional observations from a re-analysis of the deposited data

Results flagged for a closer look

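In 128 groups of 4 to 10 samples, 4 (3.12%) held a sample whose gap to the others exceeded Dixon's 95% critical value, where chance gives about 1 in 20. Pfkp summed over 4 regions stood at 270.058 CPM in female KO mouse 6, below the 296.771 to 308.582 CPM of the 5 other KO mice. The log2 ratio of Pfkm to Pfkp in dorsal striatum was 1.022 in female WT mouse 11 and 0.407 to 0.522 in the other WT mice. The same ratio in prefrontal cortex was 0.439 in male KO mouse 1 and 0.07 to 0.122 in the other KO mice. The log2 ratio of Hk2 to Hk1 in dorsal striatum was -7.688 in male KO mouse 10, against -6.163 to -5.671 in the others; that library is low in striatal markers, and the part of this in the ratio was not tested.

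Outside the members, the Y-linked Ddx3y stood at 73.421 CPM in the prefrontal cortex library labelled female WT from mouse 23, a signal that the label does not provide for.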

How the results depend on the processing

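Within sex and region the count of members called for genotype rose from 0 to 1 without the libraries low in region markers, and leaving out each mouse gave 0 to 2, the 2 without female WT mouse 23. Ventral against dorsal striatum went from 1 to 2 with DESeq2's Wald test and to 4 without the libraries low in region markers, with 0 to 3 when each mouse was left out. The other counts stayed within 1.5 times: leaving out each mouse gave 20 to 23 for amygdala against dorsal striatum, 23 to 28 for dorsal hippocampus against dorsal striatum, 20 to 24 for prefrontal cortex against cortex and 17 to 22 of the 54 ratio tests between regions. With mouse as a replicate block, prefrontal cortex against cortex gave 20 members, losing Cs, Dlat, Suclg2 and Tpi1. Dorsal hippocampus against dorsal striatum gave 24 and amygdala against dorsal striatum 23, with no count moving by over 1.5 times. The shares of all genes passing in these block fits are not given here. Per mouse, small genotype differences changed sign. Aldoa went from -0.0155 to 0.0002 with length and GC offsets and 0.0097 with voom, Ldhb from 0.0103 to -0.007 with voom, and Eno1 from -0.0444 to 0.0249 without the mice having a library low in region markers. Leaving out each mouse gave -0.0362 to 0.0308 for Aldoa, -0.0378 to 0.0447 for Hk1, -0.0327 to 0.0414 for Ldhb, -0.0296 to 0.0362 for Pcx, -0.0014 to 0.053 for Pfkm, -0.0243 to 0.0607 for Pfkp and -0.0002 to 0.031 for Sucla2. The cause was not tested. Depth limits Hk2 most, which could not be tested in the shallower regions.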

Other observations

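A wider list of 62 genes, taking in transporters, shuttles and regulators of the pathway, was read beside the members. In amygdala against dorsal striatum 35 of 57 tested passed, 14 higher and 21 lower, where 55.6% of all genes passed, among them the mitochondrial aspartate-glutamate carrier Slc25a13 at a log2 fold change of -1.35. In dorsal hippocampus against dorsal striatum 24 of 57 passed, 7 higher and 17 lower, where 54.7% of all genes passed, with Slc25a13 at -1.27 and the malic enzyme Me2 at -1.09. Prefrontal cortex against cortex gave 20 of 49, 6 higher and 14 lower, where 39.4% of all genes passed, with the pyruvate dehydrogenase phosphatase Pdp1, which opposes the Pdk kinases, at -1.31 (edgeR, adjusted p = 6.16e-07). For KO against WT per mouse 0 of 58 passed, and 2 (3.45%) had an unadjusted p below 0.05, near the 3.55% of all genes, the insulin-responsive glucose transporter Slc2a4 at -0.49 and the malic enzyme Me3 at 0.18.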
